A study of Mus musculus with 6 samples.

Results

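Matrilins 1 to 4, cartilage oligomeric matrix protein (COMP), aggrecan and link protein are secreted components of the cartilage matrix, encoded by Matn1, Matn2, Matn3, Matn4, Comp, Acan and Hapln1. They were taken as every non-control probe of the array whose RefSeq accession maps to one of these 7 symbols, which gave 8 probes among 24907 named probes tested, or 7 genes among 19122. Matn4 had 2 probes and each other gene 1. The 8 probes lay well above background on all 6 arrays and none was saturated.

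RNA was taken from the growth plate of the tibia, the cartilage that drives bone elongation, in untreated male C57BL/6J mice aged 4 weeks, collected by laser microdissection. The 3 genotypes had 2 arrays each and are labelled ATF6aKO (gene Atf6), ATF6bKO (gene Atf6b) and WT. ATF6a and ATF6b are membrane-bound transcription factors of the endoplasmic reticulum (ER) that are cleaved and released when unfolded protein accumulates there, and the study concerns ATF6 and the growth of long bones. Which part of each gene was deleted, and in which cells, is not stated in the labels. Nor do they tell whether both arrays of a genotype used different mice, so every p-value rests on array-to-array spread that could be purely technical.

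Values are normalised log2 intensities, in which a step of 1 is a doubling of signal. Before normalisation the median non-control spot read 146 to 183 intensity units on the knockout arrays and 259.5 and 210 on the WT arrays. Raw readings of knockout and WT arrays are therefore not on 1 scale. The 4 knockout arrays lay on 1 slide and were read in the red channel, and the 2 WT arrays lay on another slide, read in a single channel that the files call green although the labels give Cy5. Slide, channel and genotype therefore cannot be told apart in any comparison with WT, and 41.9% of all probes passed the threshold (limma adjusted p under 0.05) in ATF6aKO against WT and 36.5% in ATF6bKO against WT. Arrays within the knockout slide correlated across probes at r between 0.969 and 0.988, the WT arrays at 0.958, and knockout with WT arrays at 0.84 to 0.899. The lowest pair on the knockout slide was the 2 ATF6aKO arrays (0.9686). Each of them correlated more closely with ATF6bKO replicate 1 (0.976 and 0.981) than with the other. Atf6 measured 7.07 and 6.97 on ATF6aKO arrays, 6.91 and 7.01 on ATF6bKO arrays, and 7.05 and 7.28 on WT arrays. Atf6b measured 8.92 and 8.48 on ATF6aKO arrays, 8.77 and 8.41 on ATF6bKO arrays, and 9.06 and 9.19 on WT arrays. Neither targeted gene passed the threshold in its knockout (limma adjusted p = 0.498 and 0.0824). With the deleted parts unknown, these 2 probes are no check of genotype.

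Cartilage matrix is built on fibrils of type II collagen with a gel of aggrecan between them. Aggrecan carries long chondroitin sulfate chains and binds hyaluronan through a joint that link protein locks in place, and matrilins and COMP act as adaptors that tie collagen fibrils, proteoglycans and one another together. Chondrocytes secrete these proteins through the ER, several of them in large amounts. In humans, mutant COMP that fails to fold there causes pseudoachondroplasia or multiple epiphyseal dysplasia, and such mutant matrilin-3 causes the latter. Both are disorders of the growth plate.

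In ATF6aKO against WT, Matn1, Matn2, Matn3, Acan and Hapln1 rose, by 2.11-fold to 22.5-fold, and 1 of the 2 Matn4 probes fell. That is 5 of 8 probes higher, beside 20.1% of all probes, and 1 lower, beside 21.8%. Comp and the other Matn4 probe did not pass. Both ATF6aKO arrays lay above both WT arrays for 6 of 8 probes, beside 34.6% of all, and below them for 1, beside 38.3%. In ATF6bKO against WT, Matn1, Matn2 and Acan rose by 1.86-fold to 5.52-fold, which is 3 of 8 probes beside 16.6% of all. Comp and the same Matn4 probe fell, which is 2 of 8 beside 19.9%. Both ATF6bKO arrays lay above both WT arrays for 5 of 8 probes, beside 33.1% of all, and below them for 2, beside 39.4%. Between the knockouts, on 1 slide, 0 of 8 member probes and 0 of all 24907 probes passed. The median log2 difference over the 8 probes was 1.74 for ATF6aKO against WT, 0.68 for ATF6bKO against WT and 1.57 for ATF6aKO against ATF6bKO, against medians over all probes of -0.02, -0.05 and 0.001.

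**Figure D1:**
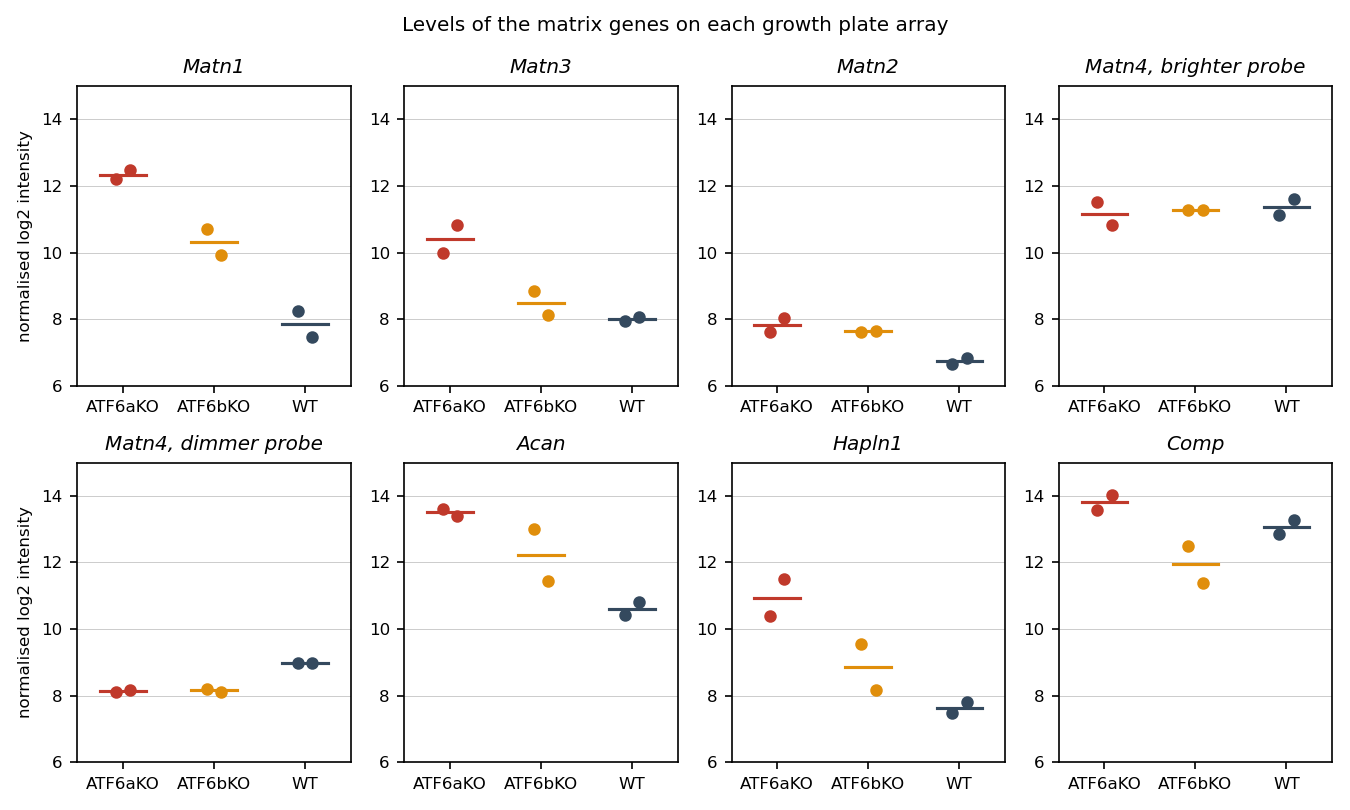
Normalised log2 intensity (vertical axis, the same scale in each panel) of the 8 probes in ATF6aKO, ATF6bKO and WT; points are arrays and lines are means of 2. Matn1, Acan, Hapln1 and Matn3 are highest in ATF6aKO and lowest on average in WT, whereas Comp is lowest in ATF6bKO and the brighter Matn4 probe overlaps between genotypes.

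Matrilin-1, the founding member of the matrilin family, forms filaments in the cartilage matrix. Its gene Matn1 measured 12.21 and 12.48 on ATF6aKO arrays, 10.71 and 9.92 on ATF6bKO arrays, and 8.24 and 7.47 on WT arrays. The 3 genotypes did not overlap, and the order from high to low was ATF6aKO, ATF6bKO, WT. Before normalisation, ATF6aKO arrays read 4318 and 5312 intensity units at this spot, ATF6bKO arrays 1326 and 695.5, and WT arrays 411.5 and 171.5, with local backgrounds of 34 to 37 on the knockout slide and 15 on the WT slide. The log2 difference from WT was 4.49 ± 0.33 (SE, n = 2 per genotype; limma adjusted p = 0.000455) in ATF6aKO and 2.46 ± 0.33 (SE; limma adjusted p = 0.00196) in ATF6bKO. Its difference in ATF6aKO exceeded that of 99.996% of all probes.

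Matrilin-3 is the matrilin most closely confined to skeletal tissue. Matn3 measured 10.002 and 10.82 on ATF6aKO arrays, 8.84 and 8.14 on ATF6bKO arrays, and 7.95 and 8.08 on WT arrays. Both ATF6aKO arrays stood above all others, and both ATF6bKO arrays above both WT arrays. Before normalisation, however, ATF6bKO arrays read 366 and 202 intensity units and WT arrays 326 and 298.5, which overlap. The log2 difference was 2.40 ± 0.32 (SE, n = 2 per genotype; limma adjusted p = 0.00156) in ATF6aKO against WT and 0.48 ± 0.32 (SE; limma adjusted p = 0.272) in ATF6bKO against WT, where the 95% confidence interval ran from -0.26 to 1.22. The ATF6bKO value was 0.13 without ATF6bKO replicate 1 and 0.83 without ATF6bKO replicate 2, and passed in neither case.

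Aggrecan is the large aggregating proteoglycan that gives cartilage its resistance to compression. Acan measured 13.61 and 13.40 on ATF6aKO arrays, 13.00 and 11.45 on ATF6bKO arrays, and 10.41 and 10.81 on WT arrays. After normalisation the genotypes did not overlap, but the 2 ATF6bKO arrays were 1.55 apart, the widest gap within a genotype for any of the 8 probes. Before normalisation, ATF6bKO arrays read 6939.5 and 2041 intensity units and WT arrays 2109.5 and 2314. On that scale ATF6bKO and WT overlapped. In ATF6aKO the rise over WT was 7.42-fold, a log2 difference of 2.89 ± 0.44 (SE, n = 2 per genotype) with a limma adjusted p of 0.0025. In ATF6bKO it was 3.07-fold (1.62 ± 0.44, SE; limma adjusted p = 0.0249), and the log2 difference was 2.39 without ATF6bKO replicate 2 and 0.84 without ATF6bKO replicate 1, where it did not pass (limma adjusted p = 0.0737). It also missed the threshold without either ATF6aKO array, which alters the shared estimate of spread (limma adjusted p = 0.0519).

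Link protein, encoded by Hapln1, stabilises the bond of aggrecan with hyaluronan. Hapln1 measured 10.39 and 11.49 on ATF6aKO arrays, 9.55 and 8.17 on ATF6bKO arrays, and 7.47 and 7.81 on WT arrays. Every ATF6aKO array stood above every ATF6bKO array, and every ATF6bKO array above WT. Before normalisation, however, ATF6bKO arrays read 598 and 207 intensity units and WT arrays 214.5 and 237, which overlap. In ATF6aKO it rose 9.85-fold over WT, a log2 difference of 3.30 ± 0.48 (SE, n = 2 per genotype) with a limma adjusted p of 0.0022. In ATF6bKO the log2 difference was 1.22 ± 0.48 (SE; limma adjusted p = 0.0862), which did not pass. It was 0.53 without ATF6bKO replicate 1 (limma adjusted p = 0.444) and 1.90, past the threshold, without ATF6bKO replicate 2 (limma adjusted p = 0.0336). With processed signals the log2 difference in ATF6aKO was 4.03.

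Sequences before the start sites of the 4 genes with the largest differences in ATF6aKO against WT are shown because these genes stood together in order of level. Each line holds the 250 bases before the RefSeq start on the gene's own strand, 5′ to 3′, from RefSeq's GRCm38.p6 table, and capitals mark every match to a searched motif. The windows are chr4:130944135-130944384 (plus strand) for Matn1, chr12:8947679-8947928 (plus) for Matn3, chr7:79052976-79053225 (plus) for Acan and chr13:89540386-89540635 (plus) for Hapln1. Of the 7 genes, 5 had a window in the table.
Matn1: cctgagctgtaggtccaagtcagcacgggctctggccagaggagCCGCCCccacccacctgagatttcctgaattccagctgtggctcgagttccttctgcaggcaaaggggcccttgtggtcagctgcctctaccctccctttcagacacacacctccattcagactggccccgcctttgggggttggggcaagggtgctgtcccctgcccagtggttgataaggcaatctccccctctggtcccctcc
Matn3: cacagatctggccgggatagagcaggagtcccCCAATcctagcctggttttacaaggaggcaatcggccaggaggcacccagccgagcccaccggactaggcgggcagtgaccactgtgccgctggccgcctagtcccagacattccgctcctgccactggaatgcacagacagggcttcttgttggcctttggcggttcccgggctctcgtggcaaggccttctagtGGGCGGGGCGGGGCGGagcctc
Acan: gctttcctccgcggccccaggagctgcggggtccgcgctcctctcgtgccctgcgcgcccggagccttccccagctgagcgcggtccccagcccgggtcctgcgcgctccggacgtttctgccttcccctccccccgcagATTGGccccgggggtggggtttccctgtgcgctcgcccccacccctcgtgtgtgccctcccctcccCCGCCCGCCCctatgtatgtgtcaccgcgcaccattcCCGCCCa
Hapln1: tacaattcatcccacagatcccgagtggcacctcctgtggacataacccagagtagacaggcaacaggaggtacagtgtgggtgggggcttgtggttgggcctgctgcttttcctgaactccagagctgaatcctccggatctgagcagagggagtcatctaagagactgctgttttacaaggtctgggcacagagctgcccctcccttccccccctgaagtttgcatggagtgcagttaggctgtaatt
The motifs searched on both strands were the SOX core in the forms ACAAAG and ACAATG, the ER stress elements ERSE and ERSE-II, the unfolded protein response element TGACGTGG, TATAAA, the GC box GGGCGG, the box CCAAT, and the nuclear factor I palindrome. ERSE begins with CCAAT, so the search for CCAAT covers its first letters too.

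GC boxes were the most frequent match in these windows. Matn3 held 3 in tandem, each overlapping the next by 1 base, beginning 22, 17 and 12 bases before the start, Acan held 3, of which the pair beginning 44 and 40 bases before the start overlap, and Matn1 held 1. GGGCGG occurred in 32.7% of all 32851 windows of this length. CCAAT occurred once each in Matn3 and Acan, and in 33.8% of all windows. Neither is particular to the genes that rose. Matn4, which did not rise and whose windows are not printed, held a GC box beginning 6 bases before a start. It held a CCAAT box beginning 146 bases before another start. No SOX core, ER stress element, unfolded protein response element, TATAAA or nuclear factor I palindrome matched in the 4 windows, while a match was found in 5408 of all windows (16.5%) for ACAAAG and 3512 for ACAATG, and in 0.113% for ERSE, 0.0304% for ERSE-II, 0.563% for TGACGTGG, 12.4% for TATAAA and 0.0365% for the palindrome. Hapln1 had no match to any motif searched.

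COMP, a thrombospondin of cartilage and tendon, did not follow the order of Matn1, Acan and Hapln1. Comp measured 13.59 and 14.02 on ATF6aKO arrays, 12.51 and 11.38 on ATF6bKO arrays, and 12.87 and 13.27 on WT arrays. Both ATF6bKO arrays lay below both WT arrays, and both ATF6aKO arrays above them. Before normalisation, ATF6aKO arrays read 11187 and 14642 intensity units and WT arrays 10530.5 and 12696, which overlap. The log2 difference from WT was 0.73 ± 0.36 (SE, n = 2 per genotype; limma adjusted p = 0.136) in ATF6aKO, with a 95% confidence interval of -0.10 to 1.57, and did not pass. In ATF6bKO it was -1.13 ± 0.36 (SE; limma adjusted p = 0.0434). That fall passed narrowly. It was -1.69 without ATF6bKO replicate 1 (limma adjusted p = 0.0209) and -0.56 without ATF6bKO replicate 2 (limma adjusted p = 0.213). It was -1.33 without WT replicate 1 (limma adjusted p = 0.0207) and -0.92 without WT replicate 2 (limma adjusted p = 0.0888). It also missed the threshold without either ATF6aKO array (limma adjusted p = 0.0689), with the replicate number as a block (limma adjusted p = 0.0631), and under 75th percentile scaling (limma adjusted p = 0.052).

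Matrilin-2 is a matrilin of many connective tissues besides cartilage. The Matn2 spot read 178 and 211 intensity units on ATF6aKO arrays, 159 and 143.5 on ATF6bKO arrays, and 98 and 95 on WT arrays. Normalised, Matn2 measured 7.63 and 8.03 on ATF6aKO arrays, 7.63 and 7.66 on ATF6bKO arrays, and 6.67 and 6.84 on WT arrays. The knockouts overlapped and both stood above WT. The log2 difference from WT was 1.08 ± 0.19 (SE, n = 2 per genotype; limma adjusted p = 0.0041) in ATF6aKO and 0.89 ± 0.19 (SE; limma adjusted p = 0.00967) in ATF6bKO, and the second did not pass without either ATF6bKO array (limma adjusted p = 0.062 and 0.0598). With processed signals the log2 differences were larger, at 1.96 in ATF6aKO and 1.61 in ATF6bKO.

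Matrilin-4 is the most widely expressed matrilin, and its gene was read by 2 probes of the same accession. The brighter, A_55_P2171206, measured 11.51 and 10.83 on ATF6aKO arrays, 11.28 and 11.28 on ATF6bKO arrays, and 11.12 and 11.61 on WT arrays. Its genotypes overlapped, and the log2 difference from WT was -0.20 ± 0.26 (SE, n = 2 per genotype; limma adjusted p = 0.572) in ATF6aKO and -0.08 ± 0.26 (SE; limma adjusted p = 0.823) in ATF6bKO. The dimmer, A_55_P2157581, measured 8.10 and 8.17 on ATF6aKO arrays, 8.22 and 8.13 on ATF6bKO arrays, and 8.98 and 8.99 on WT arrays. It fell in both knockouts against WT, with log2 differences of -0.85 ± 0.15 (SE; limma adjusted p = 0.00458) in ATF6aKO and -0.81 ± 0.15 (SE; limma adjusted p = 0.00624) in ATF6bKO. The probes thus gave different calls for 1 gene. Before normalisation the brighter probe read 1618 to 2686 intensity units on the knockout arrays and 3415.5 and 3951.5 on the WT arrays. The median non-control spot was lower on the knockout arrays too (146 to 183 units, against 259.5 and 210), so these raw readings do not settle which call holds. With the probes of a gene averaged, the Matn4 log2 difference was -0.52 (limma adjusted p = 0.0464) in ATF6aKO against WT. In ATF6bKO against WT that average gave -0.45 (limma adjusted p = 0.0816). Without ATF6bKO replicate 2, the dimmer probe did not pass in ATF6bKO (limma adjusted p = 0.051).

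**Figure D2:**
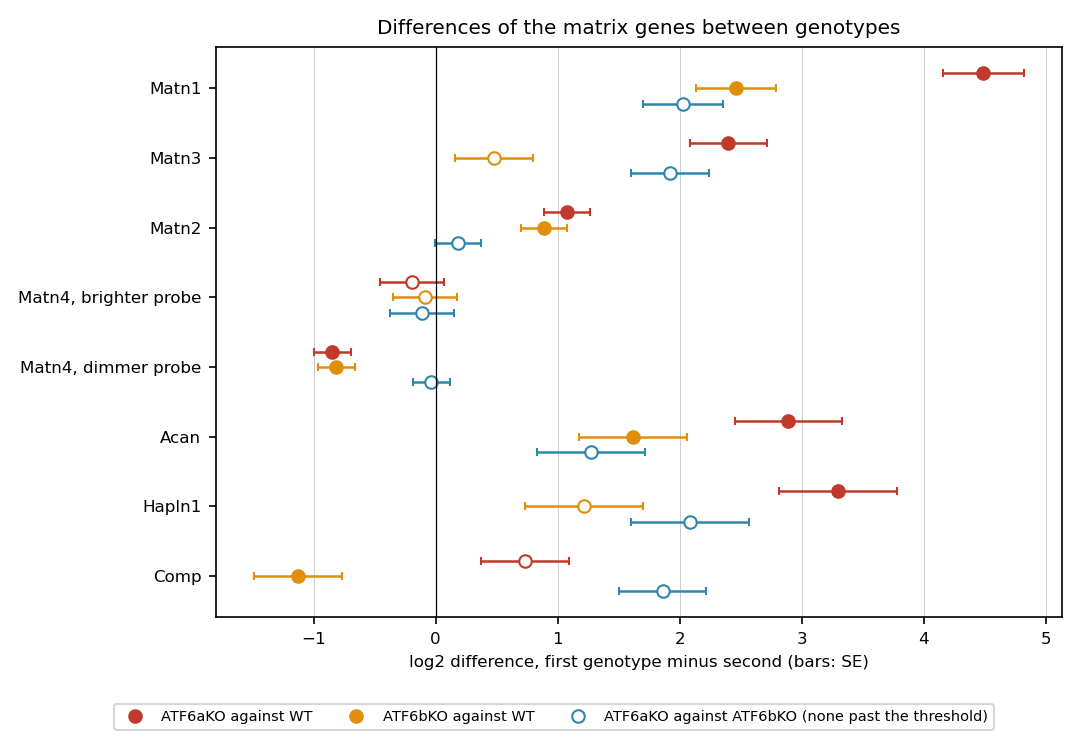
Log2 difference of each probe (horizontal axis, first genotype minus second, bars are SE) for the 3 comparisons; filled points passed the limma threshold and open points did not. Matn1 lies furthest right at 4.49 in ATF6aKO against WT, Comp has opposite signs in the comparisons with WT, and no point is filled in ATF6aKO against ATF6bKO.

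ATF6aKO against ATF6bKO was made within 1 slide and 1 channel, although each genotype filled its own row of the slide. Matn1, Matn3, Hapln1, Comp and Acan were higher on both ATF6aKO arrays than on both ATF6bKO arrays, which held for 20.6% of all probes. The log2 differences were 2.03 ± 0.33 for Matn1, 1.92 ± 0.32 for Matn3, 2.08 ± 0.48 for Hapln1, 1.86 ± 0.36 for Comp and 1.27 ± 0.44 for Acan (SE, n = 2 per genotype). None passed after adjustment over all probes in the limma fit (adjusted p between 0.582 and 0.672), while 5 of the 8 probes had an unadjusted limma p under 0.05, which 6.44% of all probes had in either direction and 5.42% had as higher in ATF6aKO. By unadjusted p, Matn1 stood at rank 9, Matn3 at rank 12, Comp at rank 34, Hapln1 at rank 114 and Acan at rank 796 of 24907.

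When the spread was estimated from the 4 knockout arrays alone, Matn1 (limma adjusted p = 0.0464) and Matn3 (limma adjusted p = 0.0485) passed, among 29 probes of 24907 (0.116%), with the same differences. Hapln1, Comp and Acan did not pass there either. The 5 differences varied with the knockout array left out. Without ATF6bKO replicate 2 the log2 difference was 1.63 for Matn1, 1.57 for Matn3, 1.40 for Hapln1, 1.30 for Comp and 0.50 for Acan. Without ATF6bKO replicate 1 it was 2.42 for Matn1, 2.27 for Matn3, 2.77 for Hapln1, 2.42 for Comp and 2.05 for Acan. Without ATF6aKO replicate 2 it was 1.89 for Matn1, 1.51 for Matn3, 1.53 for Hapln1, 1.64 for Comp and 1.38 for Acan. Without ATF6aKO replicate 1 it was 2.16 for Matn1, 2.33 for Matn3, 2.63 for Hapln1, 2.08 for Comp and 1.17 for Acan. Matn2 and both Matn4 probes overlapped between the knockouts. Their log2 differences were 0.18 (95% confidence interval -0.25 to 0.62) for Matn2, -0.11 (-0.72 to 0.50) for the brighter Matn4 probe and -0.03 (-0.39 to 0.32) for the dimmer.

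**Figure D3:**
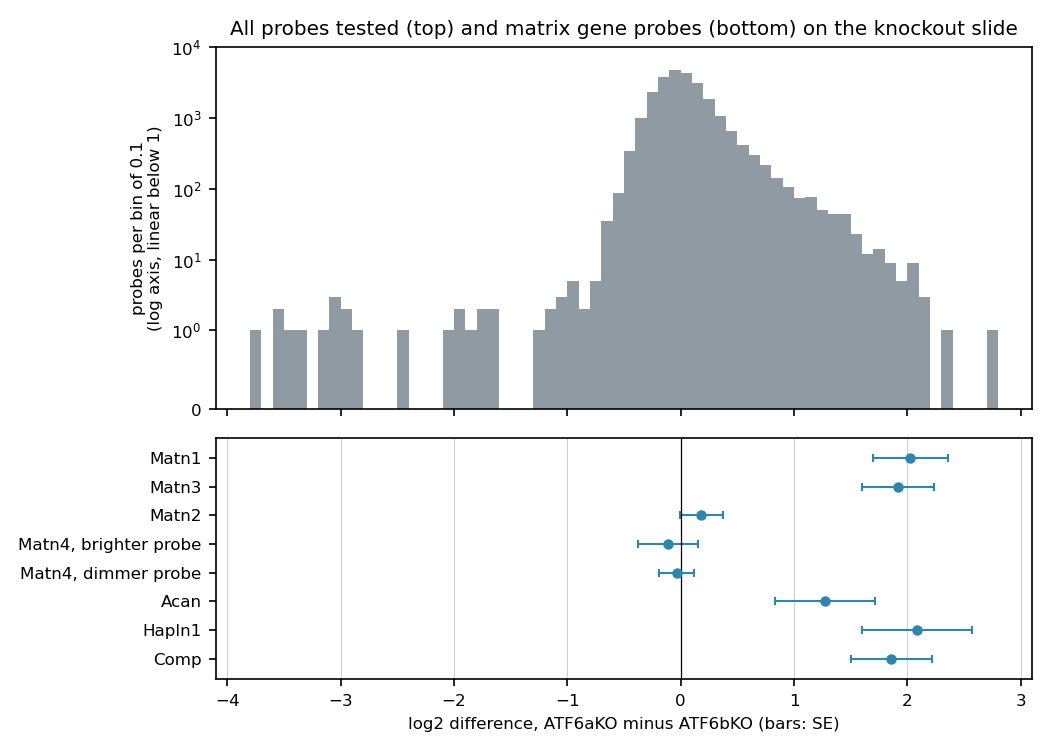
Top, number of probes per bin of 0.1 in log2 difference, ATF6aKO minus ATF6bKO, on a log axis that is linear below 1; bottom, the 8 matrix gene probes on the same horizontal axis with SE bars. Matn1, Matn3, Hapln1, Comp and Acan lie between 1.27 and 2.08, in the right tail of all probes, and Matn2 and Matn4 near 0.

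Other chondrocyte genes moved too. The mean of 12 chondrocyte markers, which include none of the 7 genes, reached 11.38 and 11.69 on ATF6aKO arrays, 10.73 and 9.82 on ATF6bKO arrays, and 9.11 and 9.42 on WT arrays, and 11 of the 12 were well above background on all arrays. Of these 12 genes, 10 rose and 1 fell in ATF6aKO against WT, beside 20.3% and 22.3% of 19122 genes when the brightest probe stands for its gene. In ATF6bKO against WT, 5 rose and 1 fell, beside 17.3% and 20.3%. In bulk tissue, fewer cells of a type and less RNA per cell cannot be told apart. Within each array the marker mean was subtracted from the member's level to show how far each gene went beyond it. In ATF6aKO minus WT the markers differed by 2.27, and beyond that Matn1 lay at 2.22, Hapln1 at 1.03, Acan at 0.62 and Matn3 at 0.13. Matn2 lay at -1.19, Comp at -1.54 and the Matn4 probes at -2.47 and -3.12, below the difference of the markers. In ATF6bKO minus WT the markers differed by 1.01, and the values beyond that ran from 1.46 for Matn1 through 0.61 for Acan to -2.13 for Comp. Between ATF6aKO and ATF6bKO the markers differed by 1.26, and Acan lay at 0.01 from them, with Hapln1 at 0.82, Matn1 at 0.76, Matn3 at 0.66 and Comp at 0.60. These are descriptions with no test.

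**Figure D4:**
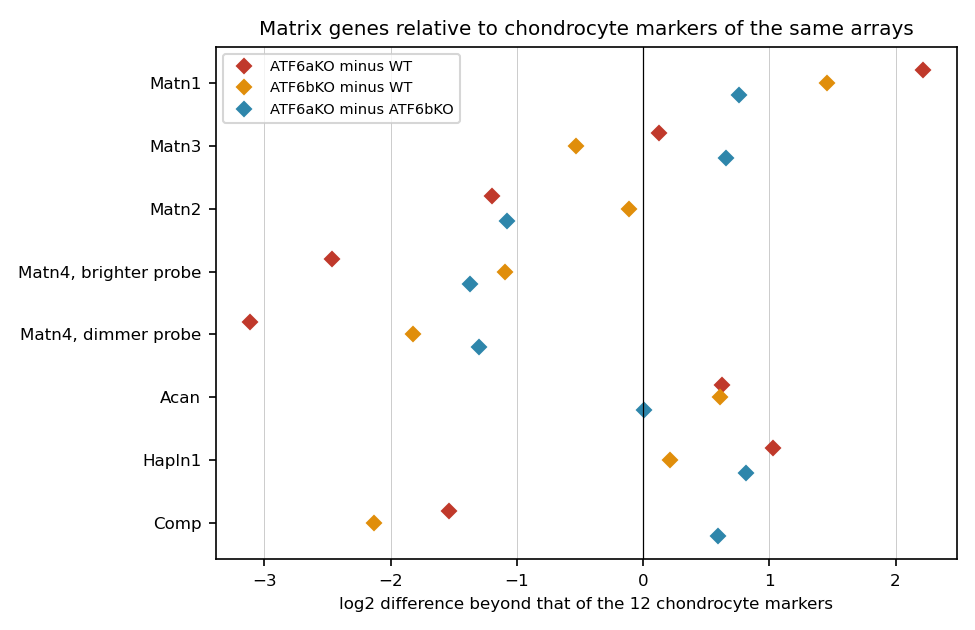
Difference between genotypes in each gene's log2 level after the mean of the 12 chondrocyte markers on the same array is subtracted (horizontal axis; 0 means the same change as the markers). Matn1 lies furthest right, at 2.22 in ATF6aKO minus WT, and Comp lies at -1.54 and -2.13 in the comparisons with WT.

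Markers of bone cells set the 2 WT arrays apart. The 7 osteoblast and osteocyte markers averaged 8.06 and 8.09 on ATF6aKO arrays, 7.90 and 7.57 on ATF6bKO arrays, and 11.02 and 7.85 on WT arrays. The 8 osteoclast markers averaged 7.96 and 8.14 on ATF6aKO arrays, 7.95 and 7.98 on ATF6bKO arrays, and 9.98 and 7.95 on WT arrays. WT replicate 1 thus stood high for bone markers where WT replicate 2 did not. Erythroid markers averaged 7.31 to 7.61 on the knockout arrays and 9.52 and 8.48 on the WT arrays, and endothelial markers 7.53 to 7.66 on the knockout arrays and 8.80 and 8.28 on the WT arrays. Macrophage markers averaged 8.78 to 8.91 on the knockout arrays and 8.99 and 9.12 on the WT arrays. Tendon, perichondrium and synovium markers averaged 8.27 to 8.46 on the knockout arrays and 8.49 and 8.48 on the WT arrays. Adipocyte markers averaged 7.13 to 7.40 on the knockout arrays and 7.44 and 7.64 on the WT arrays. Over the 6 arrays, skeletal muscle markers averaged 7.90 to 8.15. Not every marker was well above background on all 6 arrays. That held for 4 of 7 osteoblast and osteocyte, 6 of 8 osteoclast, 5 of 7 erythroid and 4 of 5 adipocyte markers. It also held for 7 of 8 endothelial, 6 of 7 macrophage, 7 of 8 skeletal muscle and 7 of 8 tendon, perichondrium and synovium markers. In ATF6aKO against WT, where 20.3% of all genes rose and 22.3% fell, 2 of 7 osteoblast and osteocyte markers fell and 1 of 8 osteoclast markers rose. Of 7 erythroid markers 1 rose and 3 fell, of 8 endothelial markers 5 fell, of 7 macrophage markers 1 rose and 5 fell, of 8 skeletal muscle markers 2 rose and 3 fell, of 8 tendon, perichondrium and synovium markers 2 fell, and of 5 adipocyte markers 1 fell. Without WT replicate 1, the log2 differences in ATF6aKO against WT were 4.88 for Matn1, 2.69 for Acan, 3.13 for Hapln1 and 2.33 for Matn3, all past the threshold. The part of blood, vessel, macrophage, tendon and adipocyte markers, higher on both WT arrays than on the knockout arrays, was not tested. For macrophage, tendon and adipocyte markers the gap was small.

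**Figure D5:**
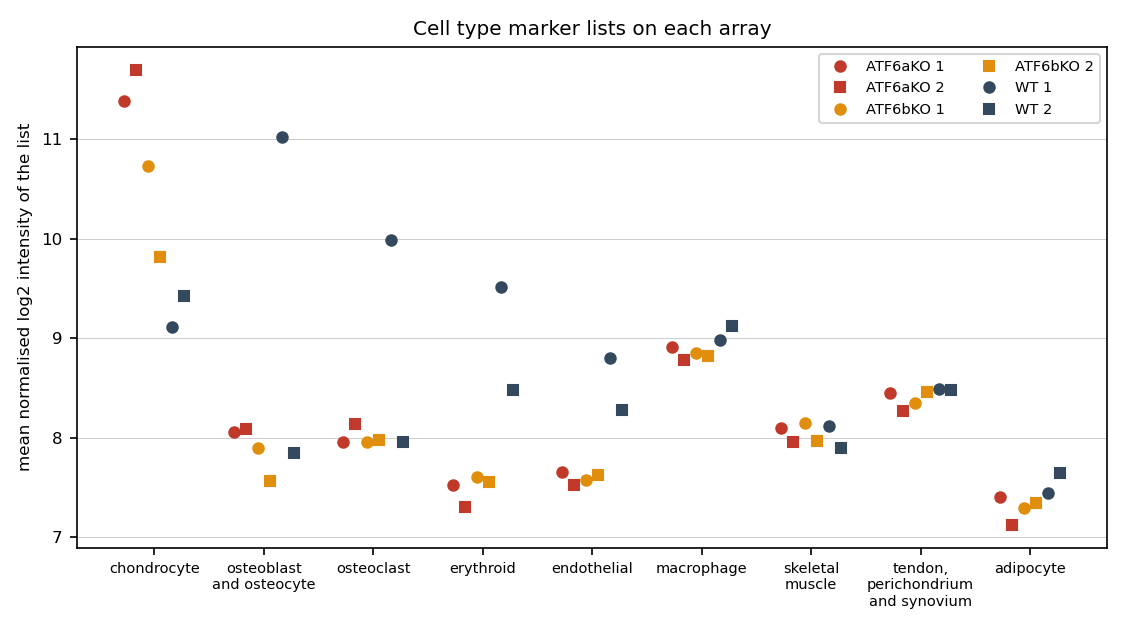
Mean normalised log2 intensity of each cell type marker list (vertical axis) on the 6 arrays; circles are replicate 1 and squares replicate 2. Chondrocyte markers are highest in ATF6aKO (11.38 and 11.69), and WT replicate 1 stands apart for osteoblast and osteocyte markers at 11.02.

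Matrilins and COMP attach to collagens, and the lists of collagens, small proteoglycans, other matrix proteins and regulators share genes with the chondrocyte markers. Of 12 cartilage collagen genes, 8 rose and 2 fell in ATF6aKO against WT and 5 rose and 3 fell in ATF6bKO against WT, beside 42.7% and 37.6% of 19122 genes passing in either direction, with median log2 differences of 1.37 and 0.36. Col2a1, the fibril-forming collagen of cartilage, rose 18.3-fold and Col9a2, a chain of the type IX collagen on the fibril surface, 12.8-fold in ATF6aKO (limma adjusted p = 0.000622 each). Of 10 other cartilage matrix proteins, 4 rose and 2 fell in ATF6aKO (median 1.45), led by Snorc at 8.84-fold and Mia at 9.73-fold, and 2 rose and 2 fell in ATF6bKO. Of 7 small leucine-rich proteoglycans, which sit on collagen fibrils, 3 rose in ATF6aKO and 1 in ATF6bKO, with Epyc 5.69-fold and Ogn 3.32-fold higher in ATF6aKO.

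Counts for relatives of the members stand beside shares over all genes. These were 20.3% higher and 22.3% lower in ATF6aKO against WT, and 17.3% and 20.3% in ATF6bKO against WT. The lists are short, and nothing particular to them is read from the counts. Of 6 other hyalectans and link proteins, 3 fell and 0 rose in each knockout against WT, with medians of -0.76 in ATF6aKO and -0.69 in ATF6bKO. Hapln3 was 2.49-fold and Hapln4 2.62-fold lower in ATF6aKO than in WT (limma adjusted p = 0.0019 and 0.00237). Among relatives of COMP, 2 of 4 other thrombospondin genes rose in ATF6aKO, namely Thbs1 at 3.24-fold and Thbs3 at 2.87-fold, and 1 rose in ATF6bKO, which was Thbs3 at 1.80-fold.

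Counts for genes of the chains that aggrecan carries and binds, and for proteases, stand beside shares over all genes of 20.3% higher and 22.3% lower in ATF6aKO against WT and 17.3% and 20.3% in ATF6bKO against WT. Of 16 chondroitin sulfate genes, 6 rose and 4 fell in ATF6aKO (median 0.04), and 3 rose and 3 fell in ATF6bKO. Papss2, which makes the sulfate donor, rose 12.05-fold and Csgalnact1, which starts the chain, 3.08-fold in ATF6aKO against WT; on the WT arrays Csgalnact1 was well above background on 1 of 2. Of 8 hyaluronan genes, 1 rose and 3 fell in ATF6aKO, with Ugdh, which makes a sugar precursor of both chains, 4.32-fold higher and the hyaluronidase gene Hyal1 2.97-fold lower; in ATF6bKO 0 rose and 3 fell. Of 10 genes for proteases that cut aggrecan, COMP or matrilins and their inhibitor, 3 rose in ATF6aKO (median -0.26). Among them were Adamts1 at 2.22-fold and Adamts12 at 2.18-fold, and on the WT arrays Adamts1 was well above background on 1 of 2. In ATF6bKO 2 of the protease and inhibitor genes rose and 2 fell (median -0.35).

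Counts for regulators and the folding machinery stand beside 42.7% of all genes called in ATF6aKO against WT and 37.6% in ATF6bKO against WT, and nothing particular to these lists is read from them. Of 8 regulators, 3 rose and 1 fell in ATF6aKO, and 2 rose and 1 fell in ATF6bKO. Sox9 encodes the factor that drives transcription of Acan, Matn1, Hapln1 and Col2a1. Its signal in ATF6aKO was at least 3.26-fold higher than in WT, whose 2 arrays did not read it well above background. Sox9 entered the test only because both ATF6aKO arrays read it, so its call (limma adjusted p = 0.00307) lends no support to a rise. It is counted among the 3 regulators that rose and among the chondrocyte markers that rose. Pth1r, the receptor for parathyroid hormone-related protein, was 3.16-fold lower in ATF6aKO and 6.17-fold lower in ATF6bKO than in WT. Of 17 ER proteins for folding of secreted matrix, 6 rose and 1 fell in ATF6aKO (median 0.72), and 2 rose and 1 fell in ATF6bKO (median -0.03). Pdia3, a disulfide isomerase, rose 6.75-fold and the ER protein gene Sdf2l1 2.28-fold in ATF6aKO, and in ATF6bKO they rose 2.80-fold and 2.33-fold. Pdia3 passed narrowly in ATF6bKO (limma adjusted p = 0.046), measuring 9.96 and 8.91 on ATF6bKO arrays and 8.64 and 7.25 on WT arrays. Between the knockouts none of these lists had a call; in ATF6aKO minus ATF6bKO the log2 difference was positive for 11 of 12 collagens, 7 of 7 small leucine-rich proteoglycans, 16 of 17 ER folding genes and 0 of 6 other hyalectans and link proteins. It was also positive for 4 of 4 other thrombospondins, 12 of 16 chondroitin sulfate genes, 7 of 10 other matrix proteins, 7 of 10 proteases, 5 of 8 regulators and 4 of 8 hyaluronan genes, beside 49.1% of all genes.

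Among all genes, profiles over the 6 arrays were compared after centring each on its own mean, with the root mean square (RMS) of the log2 differences as the measure of likeness. The brightest probe stood for each gene, and the 6 arrays share 2 slides and 2 channels. Matn1 was nearest to Col11a1 (0.42), Col2a1 (0.44) and Rps12 (0.47), and Acan to Pcolce2 (0.12), Clec3a (0.22) and Rpsa (0.30). Matn3 lay nearest to Ucma (0.20), Ecrg4 (0.21) and Scrg1 (0.23), and Hapln1 to Mia (0.24), Cdkn1c (0.27) and Gm10754 (0.27). Comp was nearest to Ppib (0.38), a prolyl isomerase of the ER, the glycolytic enzyme gene Pgam1 (0.41) and Glo1 (0.43). Matn2 was nearest to Khdc1b (0.04), Cep350 (0.04) and Nusap1 (0.05), and the brighter Matn4 probe to Akna (0.06), Adprhl1 (0.06) and Lcn5 (0.07). Those 2 profiles spanned 1.37 and 0.78 over the arrays, against 5.01 for Matn1 and 4.02 for Hapln1. Within the set, Matn3 and Hapln1 were closest at 0.45, Acan and Hapln1 followed at 0.51, and Comp was nearest to Matn3 at 0.79. Matn1 and Matn4 were furthest apart at 1.98.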

How the data were processed

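Spot intensity and background come from the deposited scanner files, written by Agilent Feature Extraction 10.7.1.1 according to the submitters' processing notes. The file headers give a Cy5-only protocol for knockout arrays and a 1-channel protocol for WT. In the authors' deposited table of log2 values, differences between arrays followed green processed signal (r of at least 0.994 over probes with green signal above 10), in which no member probe was well above background on knockout arrays. Its scale and centring stay unknown (column medians 0.2 and 0.1 in ATF6aKO, 0 and 0.227 in ATF6bKO, -0.5 and -0.5 in WT), and it served only as an alternative.

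Median signals of 62976 spots were background corrected by normexp (limma 3.58.1, R 4.3.3, offset 50) and log2 transformed. Control spots and flagged outliers were removed (288 probes lost), replicate spots averaged and arrays quantile normalised. Accessions named 26490 of 55681 probes through RefSeq's GRCm38.p6 table, used for names. A probe was tested if both arrays of some genotype read it well above background. Tests used lmFit and eBayes over all 6 arrays, adjusted by Benjamini-Hochberg over 24907 probes at 0.05, and were tested on simulated data. Lists took each gene's brightest probe and name the 2 genes of smallest p in ATF6aKO against WT. Likeness names the 3 nearest genes. Where a genotype did not read a gene well above background, its level was set per array to its own signal or the lowest well-read signal, whichever was higher, which gives a bound. Members and lists were chosen with earlier results of these data known. Alternatives covered scaling, background, filter, probe choice, variance model, the authors' table, each array left out, and a replicate block.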

Additional observations from a re-analysis of the deposited data

How the results depend on the processing

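Of the 8 member probes, 6 passed in ATF6aKO against WT, 5 in ATF6bKO against WT and 0 in ATF6aKO against ATF6bKO. Leaving out each array in turn gave 6 to 6, 3 to 5 and 0 to 2. The upper value of 2 arose without either WT array, which leaves the spread to the 4 knockout arrays, and those 4 alone also gave 2. Where 1 array was left in a genotype, it was assumed to vary like the others. In ATF6bKO against WT, processed signals gave 3, beside 36.9% of all probes, and a trended, robust variance gave 3, beside 38%. Comp and Acan were lost in both. The authors' deposited table, which follows the green channel, gave 2 in ATF6aKO against WT, beside 52.3% of all probes. It gave 3 in ATF6bKO against WT, beside 53%. The median log2 difference over all probes in it was 1.05 in each of these comparisons. In it the log2 difference reversed for Matn3 (-0.50), Comp (-4.45) and Acan (-0.65) in ATF6aKO against WT, for Matn1 (-0.47) and Acan (-1.75) in ATF6bKO against WT, and for Matn3 (-0.80) and the dimmer Matn4 probe (0.71) between the knockouts. Small differences also changed sign. With processed signals the brighter Matn4 probe gave 0.026 in ATF6bKO against WT. With each array left out it ran from -0.53 to 0.14 in ATF6aKO against WT, -0.33 to 0.17 in ATF6bKO against WT and -0.45 to 0.22 between the knockouts, where Matn2 ran from -0.020 to 0.39 and the dimmer Matn4 probe from -0.080 to 0.012. Beyond what these constructions show, the cause was not tested.

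Scaling to the 75th percentile moved the median of all probes to 0.16 in ATF6aKO against WT and 0.18 in ATF6bKO against WT. It split the calls over all probes into 6864 higher and 4460 lower, against 5002 and 5433, in ATF6aKO against WT, and 6359 higher and 3776 lower, against 4126 and 4958, in ATF6bKO against WT. All calls in ATF6aKO against WT numbered 5932 without ATF6aKO replicate 2, against 10435, and in ATF6bKO against WT 3793 without ATF6bKO replicate 1 and 4698 without ATF6bKO replicate 2, against 9084. Between the knockouts they numbered 23 without ATF6aKO replicate 2 and 29 without either WT array, against 0.

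With the replicate number as a block, 6 member probes passed in ATF6aKO against WT, beside 38.9% of all probes. In ATF6bKO against WT 4 passed, beside 33.4%, and between the knockouts 0, beside 0%. Differences between replicates 1 and 2 correlated across probes at -0.07 (ATF6aKO with WT), 0.20 (ATF6bKO with WT) and -0.15 (ATF6aKO with ATF6bKO). On the knockout slide, replicate 1 of each genotype lay in column 2 and replicate 2 in column 4, so there the block also follows slide position. An effect of slide position itself was not tested.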
